A study of Homo sapiens with 4 samples.

Results

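The mucin genes MUC1, MUC4, MUC12, MUC13, MUC15, MUC16, MUC19, MUC20 and MUC21 are 9 of the 43317 gene names on a human expression array. They were selected by gene name with the differences between the resistant and parental arrays already known, so their values are a description, and the differences that chose them support nothing by themselves. Every probe of the 9 genes was kept, 21 probes in all, because probes of the same gene can differ.

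RNA of 4 cell samples was measured on 4 Agilent arrays with a single dye, Cy3, all on 1 slide, with 1 array per group. HN4 and HN30 are established human lines of head and neck squamous cell carcinoma (HNSCC), for which the labels name no cisplatin. HN4/DDP and HN30/DDP, labelled HN4_CR and HN30_CR in the deposit, are the resistant lines raised from them by stepwise cisplatin, a DNA-damaging platinum drug, and by the labels they were kept for 48 h with 20 μM of it in the medium. The comparison of each resistant line with its parental line asks how RNA levels differ in cisplatin-resistant cells. Long selection and the drug present in the medium cannot be told apart, since both separate the same arrays.

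Mucins are proteins with long stretches rich in serine and threonine, often built of tandem repeats, that carry dense chains of O-linked sugars. Membrane mucins are anchored in the cell surface, where their extended outer part shields the epithelium and their tail or growth-factor-like domains can meet receptors and adhesion proteins, while gel-forming mucins are secreted and build mucus. In squamous and glandular epithelia they are best known for lubrication and as a barrier, and several, among them MUC1, MUC4 and MUC16, are known as antigens of carcinoma cells.

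The level of a probe is given as log2 of the processed signal, the scanner software's brightness after subtraction of background, minus the 75th percentile of the same array. A level of 0 thus lies at that percentile, and a difference of 1 between arrays is a doubling. A probe is called well above background where the scanner software marked it so. Of 58201 non-control probes, the number so marked was 32235 in HN4 against 33358 in HN4/DDP, and 31081 in HN30 against 36117 in HN30/DDP. A difference is followed by the scanner SD, the error that the software assigns to the spots, which holds no difference between cultures. A probe was counted as higher where the resistant array lay more than 2 (log2) above the parental one and was itself well above background at that probe, and as lower in the mirrored case. Where the dimmer array was not well above background, the fold is written "at least", and was taken against the lowest level of any probe well above background on that array, which was -4.18 in HN4 against -4.42 in HN4/DDP, and -4.00 in HN30 against -4.45 in HN30/DDP, or the probe's own level if higher. The number of arrays limits the precision: no difference here has a check against replicates, and none was tested. Each array reads the RNA of a whole culture, so that fewer cells with a transcript and less of it in each cell cannot be told apart.

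In HN4/DDP, 6 mucin probes of 5 genes were counted as higher than in HN4, for MUC15, MUC16, MUC19, MUC20 and MUC21, and 0 as lower. In HN30/DDP, 3 mucin probes of 3 genes were counted as higher than in HN30, for MUC4, MUC19 and MUC20, and 0 as lower. MUC19 and MUC20 were counted as higher by the same probe in both resistant lines. Most of these probes were dim on the parental array, and MUC20 in HN4 and the MUC4 probe in HN30 were the 2 cases in which both arrays of the pair were well above background.

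Set against all probes, the 6 were of 13 mucin probes well above background on HN4/DDP, beside 3.84% of 33357 probes, and the 0 lower ones of 9 on HN4, beside 2.42% of 32235. In the HN30 pair the 3 were of 11 mucin probes well above background on HN30/DDP, beside 7.81% of 36114 probes, and the 0 lower ones of 7 on HN30, beside 4.28% of 31079. The 2 genes counted in both lines stand beside 1.47% of 24471 genes. Because the mucins were selected with these contrasts known, nothing is read from these shares. With another background correction (normexp), 2 probes in HN4/DDP, 1 in HN30/DDP and 0 genes in both lines passed the same threshold, while the count over all probes went from 1282 to 300 higher in HN4/DDP and from 2819 to 592 in HN30/DDP. With dim signals set to the lowest level well above background, 3 of the 6 mucin probes in HN4/DDP passed it, of MUC15, MUC19 and MUC20, and 734 of all probes.

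Of the 21 mucin probes, 6 were well above background on all 4 arrays, all of them of MUC1 and MUC4, and 7 on none. The 7 included the MUC13 probe, so that 8 of the 9 genes had a probe well above background on at least 1 array. The number well above background was 9 in HN4 against 13 in HN4/DDP, and 7 in HN30 against 11 in HN30/DDP. Among probes that both arrays of a pair measured well above background, the median difference was -0.20 for 8 mucin probes and -0.10 for all 30528 probes in HN4, and 0.03 for 7 mucin probes and -0.20 for all 30138 in HN30.

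**Figure D1:**
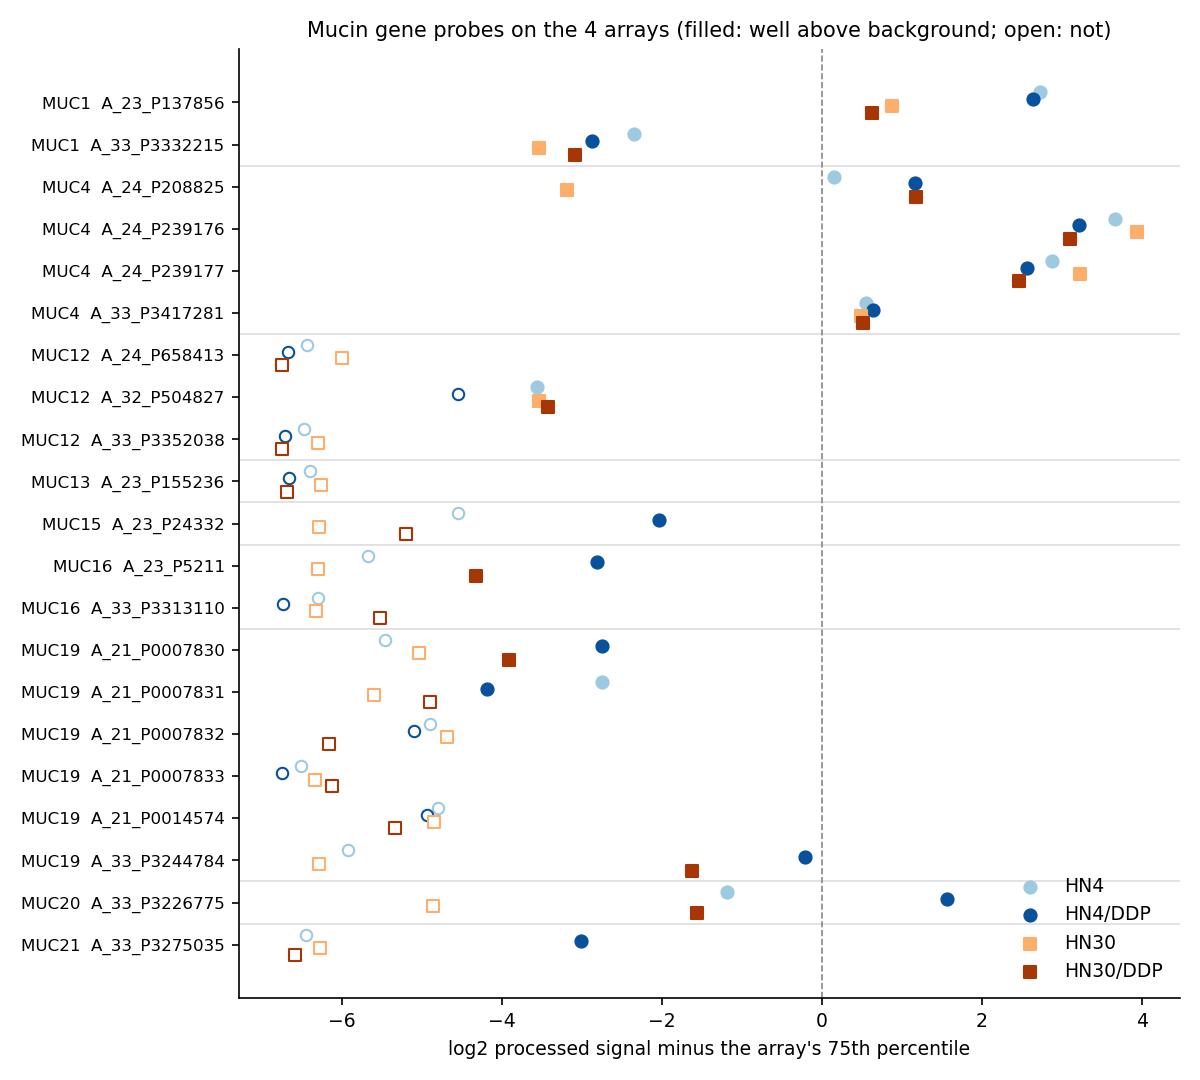
Level of each mucin probe (log2 processed signal minus the 75th percentile of the array) on the 4 arrays, 1 point per array, filled where well above background and open where not. The MUC19 probe A_33_P3244784 lies at -5.93 in HN4 and -0.21 in HN4/DDP, and at -6.28 in HN30 and -1.62 in HN30/DDP, while the MUC13 probe is open on all 4 arrays.

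MUC20 is a membrane mucin known to bind the receptor MET, and its gene is the neighbour of MUC4. Its probe A_33_P3226775 (hg19 chr3:195464463-195464522, + strand) read -1.19 in HN4 against 1.57 in HN4/DDP, and -4.86 in HN30 against -1.56 in HN30/DDP. Both resistant lines were above their parental lines, and HN30 was the array not well above background. The difference was 2.75 ± 0.21 in the HN4 pair, 6.74-fold, and 3.30 ± 0.58 in the HN30 pair, at least 5.41-fold. With normexp the differences were 2.33 and 1.1, the latter under the threshold.

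MUC4 is a large membrane mucin with growth-factor-like domains that can bind the receptor ERBB2. Its 4 probes fall into 2 kinds. The probe A_24_P208825 (hg19 chr3:195474164-195474223, - strand) lies nearest to the 3′ end of the gene, while A_33_P3417281 (chr3:195506310-195506369), A_24_P239176 (chr3:195514760-195514819) and A_24_P239177 (chr3:195514780-195514839) lie in the tandem repeat and are nearly the same sequence. They are shown because the 2 kinds of probe gave different readings. The capitals mark a run of 12 bases that the 3 repeat probes share, and the 3′ probe shares no run of 16 bases with any of them.

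A_24_P208825: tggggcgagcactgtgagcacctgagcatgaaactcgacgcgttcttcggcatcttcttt
A_33_P3417281: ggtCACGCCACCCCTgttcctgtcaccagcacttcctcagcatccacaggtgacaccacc
A_24_P239176: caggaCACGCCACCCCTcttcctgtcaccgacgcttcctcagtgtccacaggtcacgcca
A_24_P239177: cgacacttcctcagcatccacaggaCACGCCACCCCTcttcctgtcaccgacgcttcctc

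A_24_P239176 and A_24_P239177 overlap, with 40 of 40 bases equal at a shift of 20. A_33_P3417281 matches A_24_P239176 at 49 of 58 bases at a shift of 2. Within each repeat probe, the bases set 48 apart match at 11, 11 and 10 of the 12 positions that can be compared, in A_24_P239176, A_24_P239177 and A_33_P3417281. The 3 readings are therefore not independent, and the repeat occurs many times over in a MUC4 transcript.

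The 3′ probe of MUC4 read 0.15 in HN4 against 1.16 in HN4/DDP, and -3.18 in HN30 against 1.17 in HN30/DDP. HN30 stood apart as the low array, 3.33 below HN4, and the resistant lines were close to each other. The difference was 1.01 ± 0.20 in the HN4 pair, 2.02-fold and under the threshold, and 4.35 ± 0.26 in the HN30 pair, 20.4-fold, or 2.93 with normexp.

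The repeat probe A_24_P239176 of MUC4 read 3.67 in HN4 against 3.21 in HN4/DDP, and 3.94 in HN30 against 3.11 in HN30/DDP. Its overlapping neighbour A_24_P239177 read 2.87, 2.56, 3.23 and 2.47 on the same arrays. Both were lower in each resistant line, by differences of -0.45 ± 0.20 and -0.31 ± 0.20 in the HN4 pair and of -0.83 ± 0.20 and -0.75 ± 0.20 in the HN30 pair. In the HN30 pair they were -0.33 and -0.32 with the deposited table, and -1.10 and -1.02 with median scaling. The repeat probe A_33_P3417281 read 0.55, 0.65, 0.49 and 0.52, with differences of 0.10 ± 0.20 and 0.03 ± 0.20, the latter turning to -0.24 under median scaling. The 3′ probe and the repeat probes of MUC4 thus disagreed, most in HN30/DDP, where the former was higher by 4.35 and none of the latter was above 0.03. A probe of either kind was well above background on all 4 arrays, and which of them follows the MUC4 transcript was not tested.

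The genes MUC20 and MUC4 lie side by side on opposite strands, with 9.7 kb between the MUC20 probe and the 3′ probe of MUC4. A window of 130 kb to each side of the MUC20 probe, chosen after the values were seen, holds 23 probes. In HN30/DDP, 9 of the 22 probes well above background were counted as higher, beside 7.81% of all probes, and in HN4/DDP 1 of 22, the MUC20 probe itself, beside 3.84%. The 16 probes before MUC20 on its own strand, named for LINC00969 and other transcripts, had a median difference of 1.55 in the HN30 pair, with 7 counted as higher, and 0 counted in the HN4 pair.

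LINC00969, a long noncoding transcript upstream of MUC20, has 4 probes in the window, at -28.8 to -25.9 kb from the MUC20 probe. In order of position their differences in the HN30 pair were 2.92, 2.07, -0.00 and 2.34. In the HN4 pair they were -0.12, 0.15, -0.14 and -0.03. At the other end of the window TNK2, a tyrosine kinase gene next to MUC4, differed by -0.20 ± 0.20 in the HN4 pair and was 2.14-fold higher in HN30/DDP than in HN30. Whether the lines differ in these upstream readings was not tested. This stretch of the genome holds near-identical copies of the same genes, which probes may not separate.

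**Figure D2:**
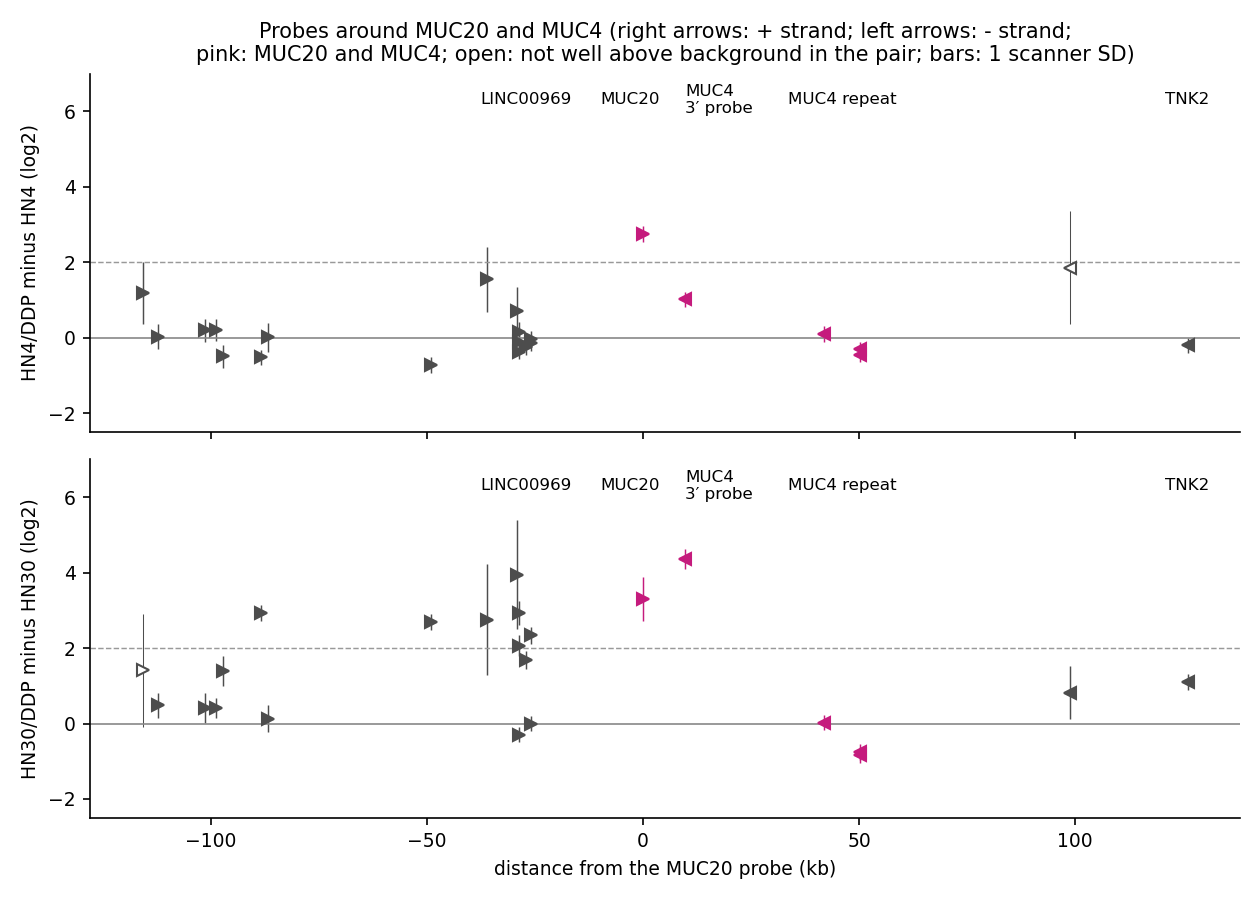
Difference of the resistant from the parental array (log2; HN4 pair above, HN30 pair below) against distance from the MUC20 probe in kb, 1 point per probe with 1 scanner SD. MUC20 is above 2 in both pairs (2.75 and 3.30), the 3′ probe of MUC4 in the HN30 pair alone (4.35), and the repeat probes of MUC4 lie between -0.83 and 0.10.

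MUC1 is the widely expressed membrane mucin whose tail binds kinases and beta-catenin. Its probe A_23_P137856 read 2.73 in HN4 against 2.64 in HN4/DDP, and 0.88 in HN30 against 0.62 in HN30/DDP. Both HN4 arrays were above both HN30 arrays, and each resistant line was near its parent. The differences were -0.09 ± 0.20 and -0.25 ± 0.20, folds of 1.06 and 1.19, the former under the scanner SD and the latter just above it. In the HN30 pair the difference was -0.094 with the deposited table, under that SD, and -0.52 with median scaling. The dimmer MUC1 probe A_33_P3332215 read -2.35, -2.87, -3.54 and -3.09, with differences of -0.52 ± 0.24 and 0.45 ± 0.32, the latter turning to -0.03 with normexp. Neither MUC1 probe came near the threshold in either line.

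MUC16, which carries the tumour antigen CA125 and binds mesothelin, has 2 probes. A_23_P5211 read -5.67 in HN4 against -2.82 in HN4/DDP, and -6.30 in HN30 against -4.32 in HN30/DDP. It was well above background on both resistant arrays and on neither parental array. In the HN4 pair the difference of 2.86 ± 0.87 gave at least 2.58-fold, and was 0.62 with normexp, under the threshold. In the HN30 pair the difference of 1.98 ± 1.48 fell just short of the threshold and gave no fold, as the level in HN30/DDP was under the lowest level well above background in HN30, and with dim signals set to that floor the difference was -0.32. The other MUC16 probe, A_33_P3313110 (-6.74 to -5.52), was not well above background on any array.

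The A_23_P5211 sequence spans an exon junction, since its 60 bases cover hg19 chr19:8966801-8968923 on the - strand, and A_33_P3313110 lies 5′ of it at chr19:9060452-9060511. Both are shown because 1 read MUC16 above background and the other did not, with no part marked in capitals.

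A_23_P5211: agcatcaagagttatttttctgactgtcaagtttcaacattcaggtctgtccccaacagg
A_33_P3313110: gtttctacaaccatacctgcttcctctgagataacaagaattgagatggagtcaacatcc

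MUC15, a membrane mucin found in many epithelia, has the probe A_23_P24332, which read -4.55 in HN4 against -2.04 in HN4/DDP, and -6.29 in HN30 against -5.19 in HN30/DDP. HN4/DDP was the array well above background. The difference in the HN4 pair was 2.51 ± 0.44, at least 4.42-fold, and 0.91 with normexp, under the threshold. No fold is given for the HN30 pair.

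MUC21, also called epiglycanin, is a membrane mucin that hinders cell adhesion. Its probe A_33_P3275035 read -6.45 in HN4 against -3.01 in HN4/DDP, and -6.28 in HN30 against -6.58 in HN30/DDP. As for MUC15, HN4/DDP alone was well above background, and both HN30 arrays were dim. The difference in the HN4 pair was 3.44 ± 1.46, at least 2.25-fold, and 0.89 with normexp, under the threshold.

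MUC12, a membrane mucin of the colon, has 3 probes, of which A_24_P658413 (-6.75 to -6.00) and A_33_P3352038 (-6.75 to -6.30) were not well above background on any array. The remaining one, A_32_P504827, read -3.56 in HN4 against -4.55 in HN4/DDP, and -3.54 in HN30 against -3.42 in HN30/DDP. HN4/DDP was the dim array here, and its difference from HN4 was -0.99 ± 0.44, at least 1.81-fold lower, but -0.26 with normexp. In the HN30 pair it was 0.12 ± 0.33, which turned to -0.16 with quantile normalization. MUC13, a membrane mucin of the gut, has the probe A_23_P155236. It was not well above background on any array, at -6.40, -6.67, -6.27 and -6.68, so no fold is given.

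MUC19 is the secreted, gel-forming mucin among the 9, known from salivary glands. It has 6 probes, and the files list 5 of them for a long noncoding transcript as well. The probe A_33_P3244784 read -5.93 in HN4 against -0.21 in HN4/DDP, and -6.28 in HN30 against -1.62 in HN30/DDP. Both resistant arrays were well above background and both parental arrays were not. The difference was 5.72 ± 1.02 in the HN4 pair, at least 15.7-fold, and 4.66 ± 1.46 in the HN30 pair, at least 5.21-fold. With normexp the differences were 2.32 and 1.18, the latter under the threshold.

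The MUC19 probe A_21_P0007830 read -5.46 in HN4 against -2.75 in HN4/DDP, and -5.04 in HN30 against -3.91 in HN30/DDP, again with the resistant arrays alone well above background. Its difference was 2.71 ± 0.76 in the HN4 pair, at least 2.70-fold but 0.66 with normexp, and 1.13 ± 0.67 in the HN30 pair, at least 1.06-fold. The probe A_21_P0007831 went the other way in the HN4 pair, from -2.75 to -4.19, a difference of -1.44 ± 0.40 or 2.71-fold lower, -0.73 with normexp, and was not well above background on either HN30 array. The other 3 MUC19 probes, A_21_P0007832 (-6.16 to -4.68), A_21_P0007833 (-6.75 to -6.12) and A_21_P0014574 (-5.33 to -4.80), were not well above background on any array. Both probes that were counted as higher are among the 5 with a second listing, and without those 5 probes, a choice made after seeing the data, 4 mucin probes in HN4/DDP, 2 in HN30/DDP and 1 gene in both lines were counted. Whether the MUC19 signal comes from the mucin transcript or the noncoding one was not tested.

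**Figure D3:**
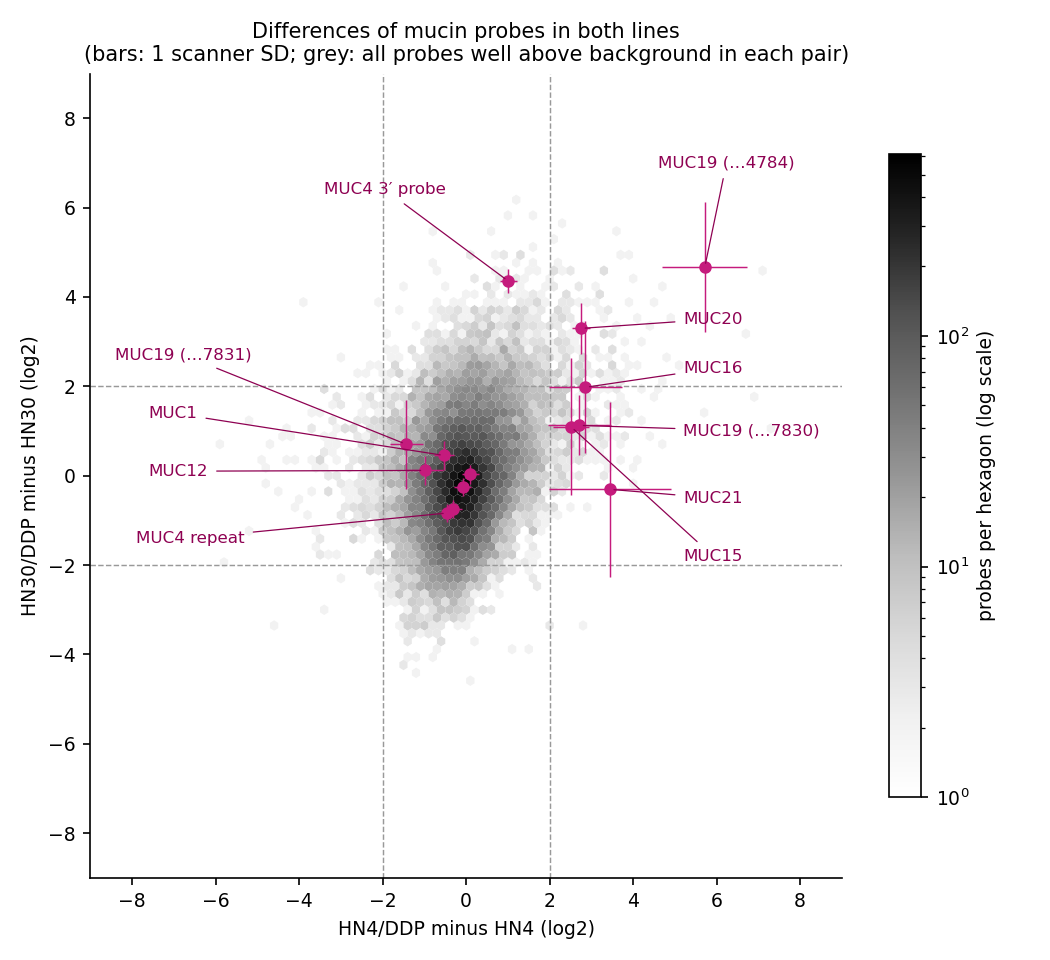
Difference in the HN4 pair (horizontal) against the HN30 pair (vertical), both log2, for the mucin probes well above background on at least 1 array (pink, with 1 scanner SD), over all probes well above background in each pair (grey, log scale). The MUC19 probe A_33_P3244784 (5.72, 4.66) and MUC20 (2.75, 3.30) are past 2 on both axes, the 3′ probe of MUC4 (1.01, 4.35) on the vertical axis alone.

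The sequences of the mucin probes were searched for runs shared with probes of other genes. Of the 21, 3 probes shared a run of at least 16 bases with a probe of another gene, the longest being 18 bases. They were MUC1 A_23_P137856 with LOC101929054, MUC19 A_33_P3244784 with LINC00630 and MUC21 A_33_P3275035 with LMCD1-AS1. Among the repeat probes of MUC4, A_24_P239177 shared such a run with each of the other 2, and none of the 3 shared one with another gene. Whether these runs carry signal from another transcript was not tested.

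In the RefSeq promoter table (GRCh38.p14), 6 of the 9 genes have 8 promoters, namely MUC1, MUC4, MUC12, MUC13, MUC16 and MUC19. MUC15, MUC20 and MUC21 have no entry. Each promoter holds 300 bases, of which 250 lie before the start. In all 300 bases, 4 letter strings were searched on both strands. The forkhead string TGTTTAC was in 0 of the 8 mucin promoters and in 3.42% of all 35116 promoters, and the GATA string AGATAA in 0 of 8 and 10.3%. The STAT string TTCNNNGAA was in 1 of 8, that of MUC4, and in 7.66% of all. The ETS string AGGAAG was in 6 of 8, those of MUC1, MUC12, MUC13 and MUC16, and in 33.6% of all. The promoters listed for MUC1 overlap and hold the same match, so that the 6 are not all separate sites. A match is a description of the letters and does not show binding.

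The promoters of MUC4, MUC16 and MUC19 are shown because these genes have an entry and a probe counted as higher in at least 1 line. The part shown is the 250 bases before each start. Capitals mark the strings found there, of which MUC19 has none. GRCh38.p14 positions are chr3:195811930-195812179 (- strand) for MUC4, chr19:9065752-9066001 and chr19:9010410-9010659 (- strand) for the 2 starts of MUC16, and chr12:40393144-40393393 (+ strand) for MUC19. The share of G and C in the bases shown was 60.4% for MUC4, 61.6% and 63.6% for MUC16 and 44.4% for MUC19. The median over the same bases of all promoters was 58.0%.

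MUC4: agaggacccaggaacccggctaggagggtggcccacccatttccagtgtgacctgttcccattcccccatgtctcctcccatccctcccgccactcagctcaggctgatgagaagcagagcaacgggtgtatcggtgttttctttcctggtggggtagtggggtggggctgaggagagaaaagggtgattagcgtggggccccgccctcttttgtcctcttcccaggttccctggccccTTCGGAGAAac
MUC16 at chr19:9065752-9066001: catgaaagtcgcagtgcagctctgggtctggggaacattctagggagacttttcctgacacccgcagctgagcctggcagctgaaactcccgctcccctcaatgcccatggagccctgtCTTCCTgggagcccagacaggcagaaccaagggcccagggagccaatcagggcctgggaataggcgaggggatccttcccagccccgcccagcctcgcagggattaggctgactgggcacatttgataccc
MUC16 at chr19:9010410-9010659: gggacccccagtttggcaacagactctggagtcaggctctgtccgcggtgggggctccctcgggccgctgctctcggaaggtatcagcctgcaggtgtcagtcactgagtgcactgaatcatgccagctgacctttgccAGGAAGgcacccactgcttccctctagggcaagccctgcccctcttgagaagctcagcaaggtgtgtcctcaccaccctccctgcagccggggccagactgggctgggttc
MUC19: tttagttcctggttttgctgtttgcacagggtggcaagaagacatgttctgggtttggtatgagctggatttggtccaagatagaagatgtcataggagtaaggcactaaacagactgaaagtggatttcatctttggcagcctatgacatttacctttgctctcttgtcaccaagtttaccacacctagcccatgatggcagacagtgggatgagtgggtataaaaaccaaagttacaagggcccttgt

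The nearest gene with a coding accession on each side of a mucin's probes was read as well, from 1.2 kb (TRIM46) to 1478.4 kb (LUZP2) away. Next to MUC1, TRIM46 differed by 0.02 and 0.29 in the HN4 and HN30 pairs, and THBS3 by -0.07 and 2.27. Next to MUC19, LRRK2 was not well above background on any array, and CNTN1 was well above background on both HN30 arrays, with a difference of 2.23 ± 0.28, 4.68-fold. Next to MUC13, HEG1 differed by -3.09 and 1.16 and ITGB5 by -0.74 and -0.02. The neighbours of MUC15, LUZP2 and ANO3, were not well above background on any array, nor were the nearest probes of MUC3A and MUC17 on the sides of MUC12 or MBD3L1 next to MUC16. OR1M1, on the other side of MUC16, was well above background on HN30/DDP alone. DPCR1 beside MUC21 differed by 0.21 and 0.89, its other neighbour MUC22 was dim at that probe, and APOD beside MUC20 differed by 0.65 in the HN4 pair and was dim in the HN30 pair. By the same threshold THBS3 and CNTN1 counted as higher in HN30/DDP, beside 7.81% of all probes, and HEG1 as lower in HN4/DDP, beside 2.42%. They lie 3.8, 388.5 and 59.5 kb from the nearest probe of MUC1, MUC19 and MUC13. MUC19 was the one of these 3 mucins counted in the same line and direction as its neighbour, and a link was not tested.

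For MUC1 and MUC4, whose brightest probes were well above background on all 4 arrays, 13286 genes were ranked by the distance between their 4 levels, each set minus its own mean. Nearest to MUC1 were HMGCS1 at 0.29, ANK1 at 0.37 and TXK at 0.38 (log2, Euclidean). Nearest to the MUC4 repeat probe A_24_P239176 were RDX, IVNS1ABP and DDX19A, each at 0.04. With 4 arrays such likeness says nothing of shared control.

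Of 20 further mucin and mucin-like genes, 16 were on the array, and 12 were well above background on at least 1 array, each read by its brightest probe. MUC3B, MUCL3, MUC20P1 and MUC20-OT1 were not among the array's names, though DPCR1 is an older name of MUCL3. In HN4/DDP 1 was counted as higher and 2 as lower, beside 3.77% and 2.41% of all genes, and in HN30/DDP 1 as higher and 0 as lower, beside 7.51% and 4.03%. Their median difference was -0.14 in the HN4 pair and -0.30 in the HN30 pair, beside -0.09 and -0.08 over all genes. The oviduct mucin OVGP1 differed by 1.37 ± 0.24 and by 4.69 ± 0.29, 25.8-fold in the HN30 pair. MUCL1, a small secreted mucin-like protein, differed by 2.62 ± 0.34 in the HN4 pair, 6.13-fold. On HN30 it was not well above background, so no fold is given for the HN30 pair (difference -0.34 ± 0.46). The sialomucins PODXL and PODXL2 were lower in HN4/DDP, by differences of -3.08 ± 0.20 and -5.66 ± 0.42 (at least 43.2-fold), and differed by 0.21 and -0.65 in the HN30 pair. CD164, the brightest of the list, differed by -0.41 and -0.26. MUC5B and MUC7, a gel-forming and a salivary mucin, were not well above background on any array. MUC2, MUC5AC and MUC6, also gel-forming, were well above background on all 4 arrays. They differed by 0.35, 0.34 and -0.21 in the HN4 pair and by 0.32, -0.51 and -0.46 in the HN30 pair. Each had another probe that went the other way in at least 1 pair.

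A chosen list of 25 genes that extend, branch or cap sugar chains or supply their building blocks was on the array in full, and 22 of them were well above background on at least 1 array. It holds no enzyme that starts O-linked chains. In each resistant line 1 was counted as higher, and 1 as lower in HN4/DDP and 0 in HN30/DDP, with medians of 0.02 and -0.08. Over all genes, 3.77% were counted as higher and 2.41% as lower in HN4/DDP, and 7.51% and 4.03% in HN30/DDP. The same shares stand beside the counts of each list and marker set below. The branching enzyme GCNT1 differed by 2.24 ± 0.28 in the HN4 pair and -0.57 in the HN30 pair. The sialyltransferase ST6GALNAC2 differed by -0.26 and by 2.62 ± 0.20, 6.15-fold in the HN30 pair. Its relative ST6GALNAC3 differed by -2.34 ± 0.24 and by 1.62 ± 0.49, at least 2.12-fold in the HN30 pair, and B3GNT3, the brightest, by 0.03 and 0.82. Of the 20 receptors, adaptors and proteases that bind or cleave membrane mucins, all were well above background, 0 were counted in either direction in either line, and the medians were -0.05 and 0.07. The brightest, MET, the receptor that MUC20 binds, differed by -0.46 and -0.26.

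Transcription factors known to act on mucin genes numbered 22, all well above background on at least 1 array, with 1 counted as higher and 1 as lower in each line and medians of 0.14 and -0.09. FOXA2 read -2.71 in HN4 against 1.08 in HN4/DDP, and -1.69 in HN30 against 0.11 in HN30/DDP, differences of 3.79 ± 0.23 and 1.80 ± 0.21. GATA3 differed by 0.15 and 2.19, CDX2 by -3.10 and 0.31, NFKB1 by -0.82 and -2.85, and HIF1A, the brightest, by -0.80 and -0.03. The mucins and these factors were read on the same arrays, and a link between them was not tested.

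**Figure D4:**
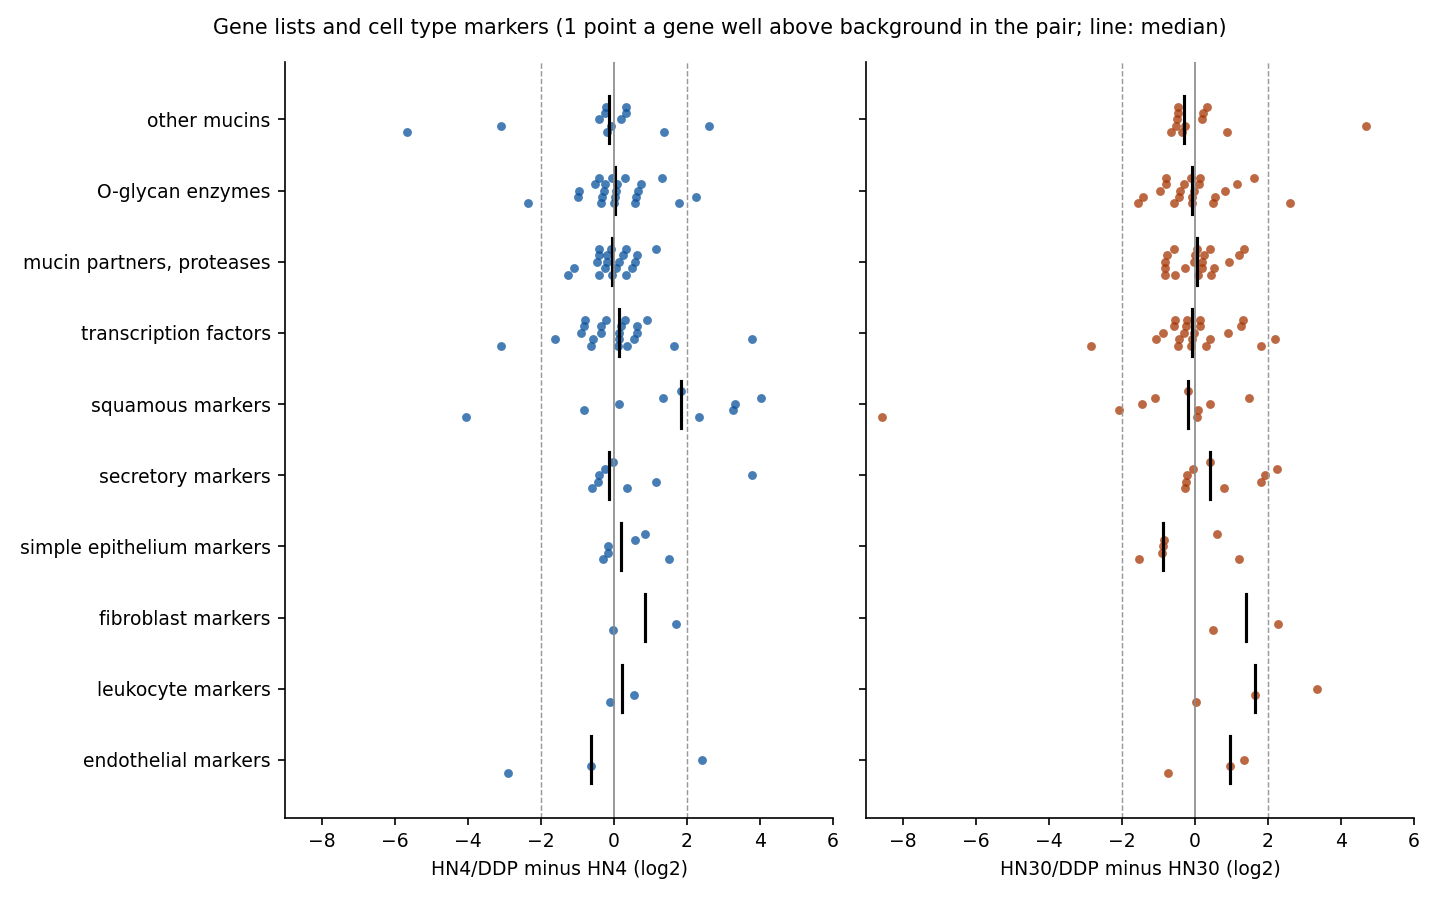
Difference of the resistant from the parental array (log2; HN4 pair left, HN30 pair right) for the genes of each list and marker set, 1 point per gene well above background in the pair, with the median as a line. The medians of the other mucins are -0.14 and -0.30 and that of the squamous markers is 1.83 in the HN4 pair and -0.19 in the HN30 pair.

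The labelled cell type was checked on markers, since mucins are made by glandular more than by squamous cells. All 9 squamous markers were well above background on at least 1 array, their summed processed signal being 66893 in HN4 against 75991 in HN4/DDP, and 61617 in HN30 against 33085 in HN30/DDP, mostly SFN. In HN4/DDP 4 were counted as higher, KRT13 (4.04), KRT6A (3.31), KRT17 (3.28) and KRT14 (2.32), beside 3.77% of all genes. KRT5 was counted as lower there (-4.06), beside 2.41%. In HN30/DDP 0 were counted as higher, and KRT5 (-2.06) and KRT6A (-8.58, at least 200-fold) as lower, beside 7.51% and 4.03%. The median was 1.83 in the HN4 pair and -0.19 in the HN30 pair. Some keratins were thus counted in the same pairs as mucin probes, KRT6A in opposite directions in the 2 lines. In the HN30 pair KRT14, KRT17 and KRT13 differed by 0.089, 0.055 and -1.457 and were not counted. The part of the keratins in the mucin result was not tested.

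Of 11 markers of secretory cells, the kind that makes mucus, 9 were well above background, with summed signals of 1729, 2262, 1855 and 3456 in HN4, HN4/DDP, HN30 and HN30/DDP, FCGBP being the brightest, and medians of -0.13 and 0.43. FOXA2 was counted as higher in HN4/DDP, and AGR2 in HN30/DDP with 2.25, beside 1.15 in the HN4 pair. TFF2, named after its values were seen, was lower in HN4/DDP than in HN4, by a difference of -0.589 ± 0.315. Its processed signal was 246 in HN30 and 1101 in HN30/DDP, a difference of 1.92 ± 0.20. FCGBP differed by -0.40 ± 0.20 in the HN4 pair and by -0.05 ± 0.20 in the HN30 pair. AGR3 and TFF3 were not well above background on any array, nor was CLCA1 except on HN30/DDP. Their part in the mucin result was not tested. Of 7 markers of simple epithelium, 6 were well above background, KRT18 being the brightest and KRT20 dim, with summed signals of 257004, 272853, 226267 and 148846, 0 counted, and medians of 0.21 and -0.86.

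Markers of other cell types were read on the same arrays, although these are cell lines. Of 6 fibroblast markers, 2 were well above background, and COL1A2, COL3A1, DCN and LUM were not, on any array. The sums were 195, 510, 99.5 and 370 in the order above, the brightest, COL1A1, differed by 1.72 and 2.29, and the medians were 0.85 and 1.40. Of the leukocyte markers, CD14 was the brightest and differed by 0.55 ± 0.20 and 3.35 ± 0.20, 10.2-fold in the HN30 pair, where it was counted as higher. PTPRC, which marks leukocytes in general, differed by -0.11 and 0.03, and CD3E, a T cell marker, was well above background on HN30/DDP alone. LYZ and CD68 of the 6 listed leukocyte markers were not among the array's names. The medians over those measured in each pair were 0.22 over 2 genes and 1.66 over 3. The latter is the value of CD3E itself, 1.66 ± 0.795, at least 1.26-fold. Of 4 endothelial markers, 3 were well above background, with sums of 131, 157, 99.3 and 137, CDH5 the brightest, KDR dim throughout, and medians of -0.63 and 0.97. In HN4/DDP VWF (2.42, at least 5.33-fold, with another probe of it in the opposite direction) was counted as higher and PECAM1 (-2.89, at least 2.06-fold) as lower. The part of these 3 sets in the mucin result was not tested.

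Under other ways of processing, the 9 mucin differences counted above kept their sign. With median scaling, quantile normalization and the deposited log2 table, 9 of 9 stayed past 2. With normexp 3 did, with a pseudocount of 16 it was 5, and with dim signals set to the lowest level well above background it was 6. MUC20 and MUC19 A_33_P3244784 in the HN4 pair and the 3′ probe of MUC4 in the HN30 pair stayed past 2 in each of these 6, at 2.33, 2.32 and 2.93 with normexp. Of the 23 differences past 2 among the named genes of the lists and marker sets, 12 stayed past 2 with normexp, 15 with a pseudocount of 16 and 21 with median scaling.

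**Figure D5:**
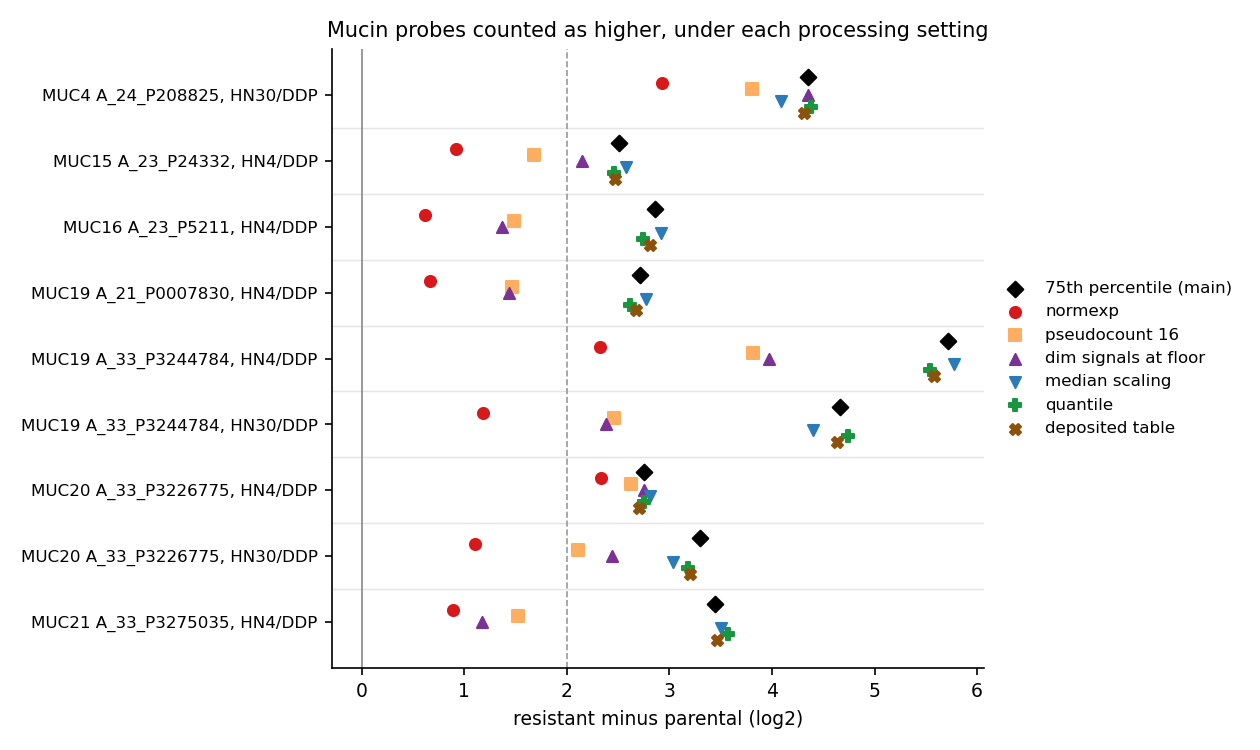
Difference of the resistant from the parental array (log2) of the 9 mucin differences counted as higher, 1 symbol per processing setting. MUC20 and MUC19 A_33_P3244784 in HN4/DDP and the 3′ probe of MUC4 in HN30/DDP lie past the dashed line at 2 under each setting drawn, while MUC21 falls from 3.44 to 0.89 with normexp.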

How the data were processed

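Total RNA of 4 cell samples, 1 per group, was measured on one-colour Agilent arrays. For each array the authors deposited a scanner file that gives every spot a processed intensity, made with Feature Extraction 10.7.1.1, background subtracted and not normalized between arrays, and probe positions on hg19. A table of log2 values was deposited too. Each column's median was 4.65 and the sorted values of the columns were the same, as quantile normalization leaves them, and each column followed log2 of its array's scanner values with r of 0.998 to 1.00 over probes. Its log2 scale and its direction follow from that comparison, while how spots were combined and what was done before normalization is not stated in the deposit. It served as an alternative.

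Control spots and outlier spots were dropped, replicate spots were averaged per probe, and log2 of the processed signal minus the array's 75th percentile was used. Each resistant array was compared with its parental array, and no test was run, since the mucins were chosen with these contrasts known and each line gives 1 difference. The mucin genes, the gene lists and the markers were chosen with earlier results of these data known. Named are all 9 mucins with each probe, from each list up to 6 genes past a difference of 2 in either line by size, and its brightest gene, the nearest gene with a coding accession on each side, and the 3 genes of most similar pattern. Other list genes, such as the mucins and markers named as dim, and MUC2, MUC5AC, MUC6, TFF2, PTPRC and CD3E, were named after their values were seen. In lists a gene is its probe with the highest mean. Of the 21 mucin probes, 19 matched the RefSeq table of GRCh38.p14 by accession under the same symbol and 2, of MUC20 and MUC21, matched none. Promoters came from RefSeq (GRCh38.p14), probe sequences from the scanner files.

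Alternatives were normexp on mean and background signals with an offset of 50, median scaling, quantile normalization, a pseudocount of 16, dim signals at the floor, the deposited table, outliers kept, a threshold of 1, probes well above background on both arrays, and other ways to join the probes of a gene. The steps used Python 3.11.15, numpy 2.4.6, pandas 2.3.3, matplotlib 3.10.9, R 4.3.3 and limma 3.58.1. The counting was tested on simulated arrays, with shifts added only to probes well above background on every array. No shift was simulated against a dim parental signal.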

Additional observations from a re-analysis of the deposited data

How the results depend on the processing

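The count of mucin probes higher in HN4/DDP was 6. It was 2 with normexp, 2 with a pseudocount of 16, 3 with dim signals set to the lowest level well above background, and 1 where both arrays had to be well above background. Over all probes the same count went from 1282 to 300, 600 and 734 under the first 3 of these. The count lower in HN4/DDP was 0, and 1 at a threshold of 1, a MUC19 probe. The count higher in HN30/DDP was 3. It was 1 with normexp, 5 at a threshold of 1, and 1 where both arrays had to be well above background, and over all probes it went from 2819 to 592 with normexp. The count lower in HN30/DDP was 0 under each alternative run. The count of genes higher in both lines was 2. It was 0 with normexp, 4 at a threshold of 1, 0 where both arrays had to be well above background, 1 (MUC20) with the mean of all probes of a gene, and 1 without the probes also listed for a long noncoding transcript, an alternative chosen after seeing the data. The cause of these shifts was not tested. No count over all probes is given for a threshold of 1 or for both arrays well above background. Nothing particular to the mucins is therefore read from the counts at those settings. Median scaling, quantile normalization, the deposited table and kept outliers left the counts within 1 of these values, and quantile normalization added MUC16 in HN30/DDP.

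The median difference over probes well above background on both arrays was -0.20 in the HN30 pair and -0.46 with median scaling, and -0.10 and -0.04 in the HN4 pair. Of all probes counted in HN30/DDP, 68.0% were higher, against 51.4% with median scaling, 49.6% with normexp and 56.2% with a pseudocount of 16, so that the balance of higher and lower probes in this line depends on the setting.

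Signal over background limits the mucin values, as 7 of the 9 counted differences are bounds against a dim parental array.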
